A study of Homo sapiens with 4 samples.

Results

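SOX proteins are transcription factors that bind DNA through an HMG box, a domain that sits in the minor groove and bends the helix. The 10 SOX genes described here, SOX2, SOX3, SOX4, SOX5, SOX6, SOX8, SOX9, SOX11, SOX12 and SOX13, are members of the family with known roles in neural and embryonic lineages. They were taken by name from the 27011 genes of the count table. RNA was sequenced from 4 libraries of HEK293T, an established human embryonic kidney cell line: 2 biological replicates of the wild-type (WT) line and 2 of a Helz-null line derived from it by Cas9 editing of exon 8 of helz. The cells were grown on 15 cm dishes for 24 h and harvested without further treatment. A single edited line was compared with its parent, so the loss of HELZ and any other difference acquired while the edited line was derived cannot be told apart.

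The family is divided into subgroups by sequence. The SOXB1 proteins (here SOX2 and SOX3) hold neural progenitors and, for SOX2, pluripotent cells in the undifferentiated state. The SOXC proteins (SOX4, SOX11 and SOX12) act in progenitors that start to differentiate, among them young neurons. The SOXD proteins (SOX5, SOX6 and SOX13) lack a transactivation domain, form dimers through a coiled coil and modulate other SOX factors. The SOXE proteins (here SOX8 and SOX9) act in cartilage, testis, neural crest and glia. Levels and shares of subgroups given below cover only the genes described here. SOX9 switches on the cartilage collagen gene COL2A1 together with SOX5 and SOX6.

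In Helz-null cells the mRNAs of SOX4, SOX8, SOX13 and SOX6 were higher than in WT cells, by 24.1%, 37.9%, 24.7% and 59.2%. SOX2, SOX3, SOX5, SOX9 and SOX12 did not pass the test, and SOX11 was at the limit of detection. Each subgroup other than SOXB1 held at least 1 member that rose and at least 1 that was not called. Of the 10 genes, 6 were among the 10978 genes that the authors had selected at an FPKM (read fragments scaled to gene length and library size) above 2. Of these 6, 3 were up-regulated at an FDR under 0.005 in edgeR's quasi-likelihood test, and 13.9% of all genes tested were up-regulated. None of the 6 was down-regulated in edgeR or in DESeq2, 0 had an unadjusted p under 0.05 in that direction in edgeR, and 15.5% of all genes tested were down-regulated. The median log2FC of the 6 was 0.22, against -0.00091 for all genes tested. SOX3, SOX5, SOX6 and SOX11 lay outside that selection. The first 3 of these 4 were tested in a second fit on the 16087 genes that passed edgeR's filterByExpr, in which 9.83% of genes were up-regulated and 11.5% were down-regulated.

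The DNA stretch below encodes the start of the HMG box and shows how alike the 10 genes are in the part that defines the family. Each is 27 bases long, read 5′ to 3′ on the strand of the gene from the GENCODE transcripts, with coordinates of hg19 (GRCh37). Capitals mark the bases that differ from SOX2.
SOX2 (chr3:181430275-181430301, plus strand): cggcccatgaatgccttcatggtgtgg
SOX3 (chrX:139586779-139586805, minus strand): cggcccatgaaCgccttcatggtAtgg
SOX4 (chr6:21594946-21594972, plus strand): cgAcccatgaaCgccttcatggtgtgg
SOX11 (chr2:5833004-5833030, plus strand): cggccGatgaaCgcGttcatggtAtgg
SOX12 (chr20:306692-306718, plus strand): AggccGatgaaCgcAttcatggtgtgg
SOX5 (chr12:23696218-23696244, minus strand): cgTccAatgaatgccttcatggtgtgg
SOX6 (chr11:16010616-16010642, minus strand): cgAccAatgaatgcAttcatggtTtgg
SOX13 (chr1:204092833-204092859, plus strand): AggcccatgaaCgccttcatggtgtgg
SOX8 (chr16:1032232-1032258, plus strand): cggcccatgaaCgcAttcatggtgtgg
SOX9 (chr17:70117851-70117877, plus strand): cggcccatgaaCgccttcatggtgtgg

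Between any 2 of the 10 genes, 21 to 26 of the 27 bases were identical. The windows were located by the residues that they encode, which are the same in the 10 genes, so the differences are synonymous by construction. The stretch is coding sequence in exon 1 of SOX2, SOX3, SOX4, SOX11, SOX12, SOX8 and SOX9, of which the first 5 have 1 exon and the last 2 have 3 exons. In the SOXD genes it lies in exon 13 of 15 (SOX5), exon 14 of 16 (SOX6) and exon 12 of 14 (SOX13) of the canonical transcript. Over whole transcripts, the longest run of identical bases that any of the 45 pairs shared was 37 nt, between SOX8 and SOX9, and only 3 pairs shared a run of over 30 nt. The read length is not given in the sources used here, and how many reads such runs affect was not tested.

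The libraries held between 41745401 and 70464140 counts, and the detection floor of 3 counts corresponds to 0.043 to 0.072 CPM, the count scaled to library size. Values below are CPM of the tested genes after TMM scaling unless FPKM is named. HELZ itself was at 99.8 and 103.9 CPM in the WT libraries and at 36.98 and 37.88 CPM in the Helz-null libraries (log2FC -1.44, SE 0.042, edgeR quasi-likelihood adjusted p = 2.13e-27). Of all genes tested, 1524 were up-regulated and 1701 down-regulated, so that 47.3% of the calls were upward. When libraries were scaled by their totals only, 2109 genes were up and 1318 down, and 61.5% of the calls were upward. The median log2FC of all genes moved by less than 0.1 with that scaling, to 0.032. Of 8 kidney progenitor markers, 4 had an FPKM above 2 in at least 1 library, among them SIX2 (between 61.8 and 65.1 CPM), whereas PAX8 had at most 4 counts in each library. EYA1 of this list fell (log2FC -0.55, edgeR adjusted p = 2.71e-07) and LHX1 rose (log2FC 0.98, adjusted p = 4.98e-06 in the filterByExpr fit), and the part of such marker changes in the SOX results was not tested. Of 8 genes of mature kidney epithelium, 6 had at most 3 counts in every library. PTPRC and CD3E, which mark leukocytes, and DCN, which marks fibroblasts, also had at most 3 counts in every library.

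Levels of the SOX genes were compared per length, as FPKM. SOX4 and SOX12 were the most abundant, with mean FPKM over the 4 libraries of 21.7 and 21.2. SOX13 (5.78), SOX9 (4.82), SOX2 (3.59) and SOX8 (3.31) followed. The order of SOX2 and SOX8 differed by genotype, with means of 3.40 and 2.74 FPKM in WT and of 3.78 and 3.89 FPKM in Helz-null libraries, where the values of the 2 genes overlapped. SOX6 (0.626), SOX5 (0.390) and SOX3 (0.141) lay below the FPKM of 2 used by the authors, and SOX11 was last at 0.0020. In this order the ranges over the 4 libraries overlapped between SOX4 and SOX12, between SOX2 and SOX8 and between SOX6 and SOX5, and not between other neighbours. The level of the 10 genes together was 56.8 and 56.8 FPKM in the WT libraries and 66.5 and 66.5 FPKM in the Helz-null libraries.

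**Figure D1:**
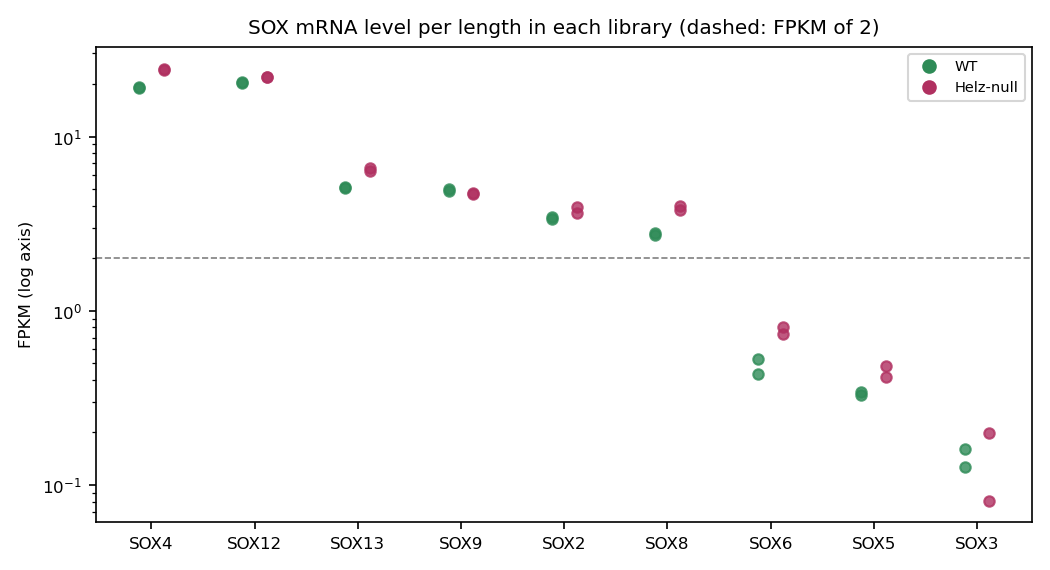
Level per length of 9 SOX genes in each library, in FPKM on a log axis, ordered by the mean, with WT libraries in green, Helz-null libraries in red and a dashed line at an FPKM of 2. SOX4 and SOX12 lie together at the top, SOX6, SOX5 and SOX3 lie below the line, and SOX11, at 0 in 2 libraries, is not drawn.

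SOX4, on chromosome 6 from 21593982 to 21598850 (plus strand), was the called SOX gene with the most reads. It was at 97.3 and 95.8 CPM in the WT libraries and at 121.0 and 118.9 CPM in the Helz-null libraries. The groups did not overlap, and the difference was many times the spread between replicates. The mean rose from 96.5 ± 1.08 to 120.0 ± 1.43 CPM (SD, n = 2 libraries each), a log2FC of 0.31 (SE 0.035, edgeR quasi-likelihood adjusted p = 1.07e-09). The 95% interval of the log2FC ran from 0.24 to 0.38. With libraries left out in turn the log2FC stayed between 0.30 and 0.32.

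SOX12, on chromosome 20 from 306196 to 310868 (plus strand), belongs to the same subgroup and is expressed at about the same level. It was at 99.5 and 98.2 CPM in the WT libraries and at 103.3 and 103.2 CPM in the Helz-null libraries. Both Helz-null values lay above both WT values, as for SOX4, but the difference was small. The log2FC was 0.06 (SE 0.035, 95% interval -0.0081 to 0.13, edgeR quasi-likelihood adjusted p = 0.15), so that SOX12 was not called. Its transcript has a GC content of 62.2%, and with a correction for GC content its log2FC was 0.015. NRSN2-AS1, which overlaps SOX12 on the opposite strand, had between 54 and 126 counts per library. SOX4 and SOX12 changed places: SOX12 had the higher FPKM in both WT libraries (20.6 and 20.4, against 19.3 and 19.0 for SOX4) and SOX4 in both Helz-null libraries (24.5 and 24.1, against 22.0 and 21.9 for SOX12). The difference between the log2FC of SOX4 and that of SOX12 was not tested.

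SOX11, the third SOXC gene (chromosome 2, 5832516 to 5841517, plus strand), had 0 and 2 counts in WT libraries, and 1 and 0 counts in Helz-null libraries. All 4 values are below the floor of 3 counts, so no change could be computed. SOX4 made up 48.3% and 48.2% of the summed SOXC level in the WT libraries and 52.8% and 52.4% of it in Helz-null cells. These shares depend on the gene widths in the count table.

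SOX8, on chromosome 16 from 1031770 to 1036979 (plus strand), had the largest change among the 6 SOX genes of the authors' selection. It was at 8.78 and 8.51 CPM in the WT libraries and at 12.2 and 11.7 CPM in the Helz-null libraries. Both Helz-null libraries were higher than both WT libraries. The mean rose from 8.64 ± 0.186 to 11.97 ± 0.382 CPM (SD, n = 2 libraries per genotype), giving a log2FC of 0.46 (SE 0.094, 95% interval 0.27 to 0.65, edgeR quasi-likelihood adjusted p = 9.50e-05). SOX8 is rich in G and C (64.0% of its transcript), and with the correction for GC content its log2FC was 0.41 (adjusted p = 0.00056). With libraries left out in turn it ranged from 0.43 to 0.50.

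SOX9, on chromosome 17 from 70117161 to 70122557 (plus strand), was at 19.7 and 20.4 CPM in the WT libraries and at 18.9 and 18.7 CPM in the Helz-null libraries. Of the 6 genes of the authors' selection, SOX9 alone had lower values in both Helz-null libraries than in both WT libraries. The log2FC of -0.09 (SE 0.070, 95% interval -0.23 to 0.047, edgeR quasi-likelihood adjusted p = 0.29) did not pass the threshold. SOX9 lies 4.88 Mb from HELZ on the same chromosome. SOX8 accounted for 36.5% and 35.0% of the summed SOXE level in WT libraries, compared with 45.6% and 44.7% in Helz-null cells. SOX9 thus remained the more abundant of the pair in each library.

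**Figure D2:**
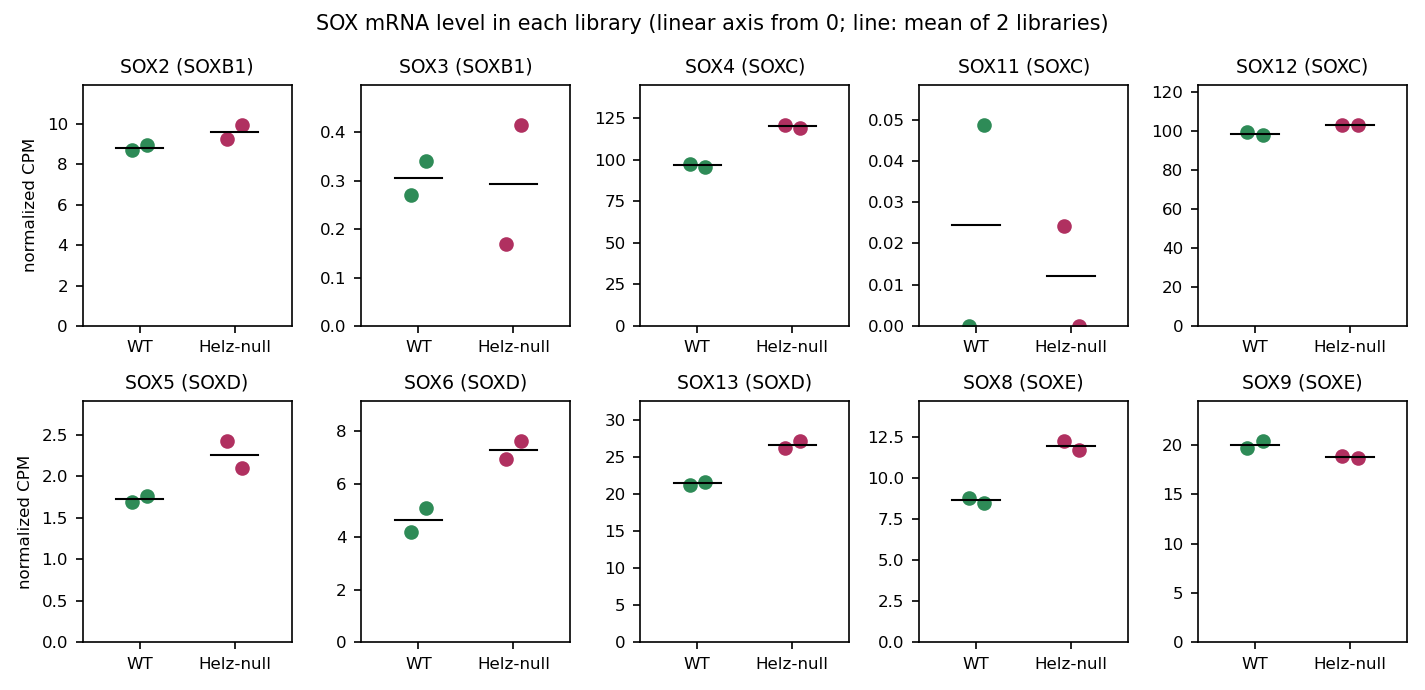
Normalized CPM of each SOX gene in each library on a linear axis that starts at 0, with WT libraries in green, Helz-null libraries in red and lines at the means of 2 libraries. The Helz-null points of SOX4, SOX8, SOX13 and SOX6 lie clearly above the WT points, and those of SOX3 and SOX11 are spread across the WT range.

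Among the SOXD genes, SOX13 (chromosome 1, 204042243 to 204096871, plus strand) is the abundant one. It was at 21.2 and 21.6 CPM in the WT libraries and at 26.2 and 27.1 CPM in the Helz-null libraries. The groups were separate, with a gap larger than the spread within either. The mean rose from 21.4 ± 0.258 to 26.7 ± 0.647 CPM (SD, n = 2 each), a log2FC of 0.32 (SE 0.064, 95% interval 0.19 to 0.45, edgeR quasi-likelihood adjusted p = 7.81e-05). With the GC correction (transcript GC content 60.6%) the log2FC was 0.28 (adjusted p = 0.00043).

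SOX6 (chromosome 11, 15987995 to 16761138, minus strand) was at 4.205 and 5.098 CPM in the WT libraries and at 6.97 and 7.63 CPM in the Helz-null libraries, or 264, 209, 288 and 532 counts. It showed the largest change of the 9 SOX genes that could be tested, and its WT libraries differed from each other, relative to their level, more than for SOX4, SOX8 or SOX13. In the fit on the filterByExpr genes its log2FC was 0.67 (SE 0.12, 95% interval 0.42 to 0.92, edgeR quasi-likelihood adjusted p = 5.03e-05). Without WT replicate 1 the log2FC was 0.52 (adjusted p = 0.0027) and without WT replicate 2 it was 0.80. SOX6 has a low GC content (41.8%), and with the GC correction its log2FC was 0.72. C11orf58, a gene on the opposite strand that overlaps SOX6, had between 11477 and 18660 counts per library. Its log2FC was -0.08 (adjusted p = 0.018), and the share of its reads that was counted for SOX6, if any, was not tested, since the use of strand in counting is not stated.

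SOX5 (chromosome 12, 23682438 to 24715478, minus strand) pointed the same way without passing the test. It was at 1.69 and 1.76 CPM in the WT libraries and at 2.42 and 2.09 CPM in the Helz-null libraries, from 72 to 146 counts per library. Both Helz-null values were above the WT values. The log2FC was 0.38 (SE 0.20, 95% interval -0.035 to 0.79, adjusted p = 0.15 in the filterByExpr fit), and this depth leaves room for no change as well as for a change as large as that of SOX6. SOX13 held between 84.0% and 86.9% of the summed SOXD level in the 4 libraries, SOX6 between 7.48% and 10.3% and SOX5 between 5.31% and 6.32%.

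**Figure D3:**
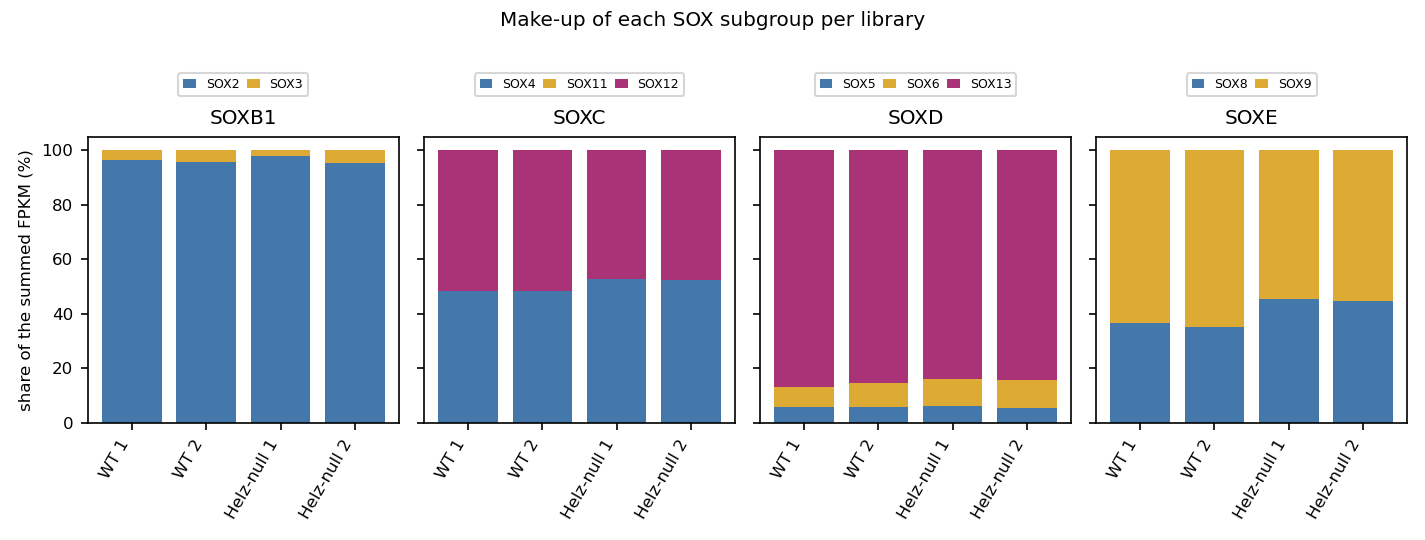
Share of each gene in the summed FPKM of its SOX subgroup, in percent, for each of the 4 libraries. SOX8 takes a larger share of the SOXE bars, and SOX4 of the SOXC bars, in both Helz-null libraries than in both WT libraries.

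In the SOXB1 subgroup, SOX2 (chromosome 3, 181429713 to 181432224, plus strand) was at 8.71 and 8.95 CPM in the WT libraries and at 9.24 and 9.97 CPM in the Helz-null libraries. The Helz-null values were the higher ones, but the 2 Helz-null libraries differed from each other by more than Helz-null replicate 1 differed from the WT libraries. The log2FC was 0.13 (SE 0.099, 95% interval -0.070 to 0.33, edgeR quasi-likelihood adjusted p = 0.30). It was 0.068 without Helz-null replicate 2 and 0.18 without Helz-null replicate 1. SOX2 lies within the long non-coding gene SOX2-OT on the same strand, which had between 5 and 14 counts per library.

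SOX3 (chromosome X, 139585150 to 139587234, minus strand) was rare, with 17 and 14 counts in WT libraries, and 7 and 29 counts in Helz-null libraries. At 0.271, 0.341, 0.169 and 0.416 CPM the Helz-null values lay on both sides of the WT values. The group means were 0.306 CPM for WT and 0.293 CPM for Helz-null, and the fitted log2FC was 0.07 (SE 0.49, 95% interval -0.92 to 1.06, adjusted p = 0.93 in the filterByExpr fit). A difference was not detectable at this depth. SOX2 therefore made up between 95.2% and 97.8% of the SOXB1 level in each library.

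**Figure D4:**
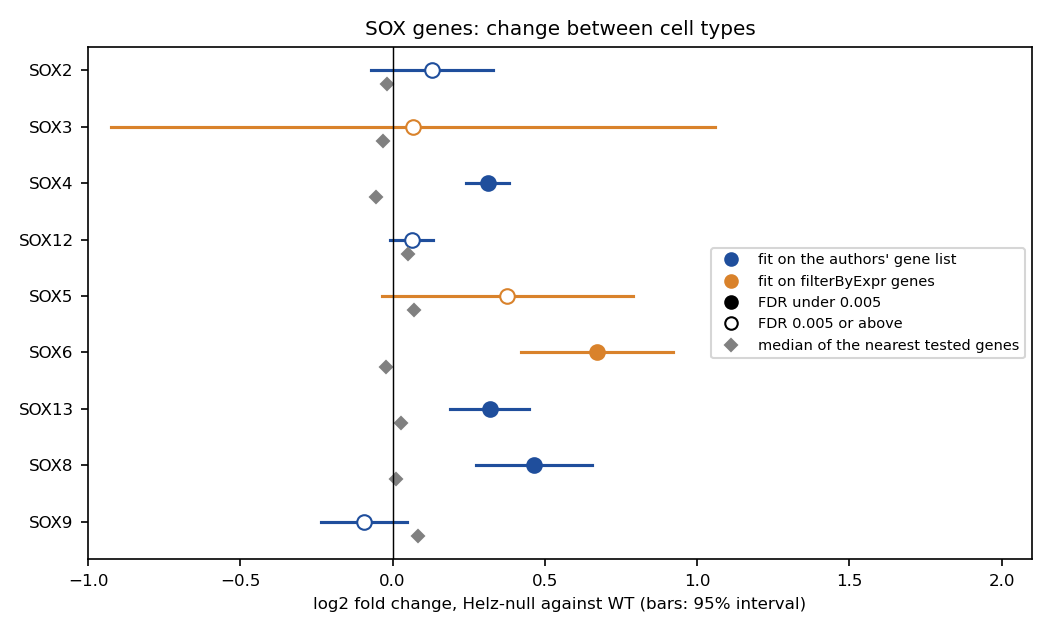
Log2 fold change between Helz-null and WT cells of the 9 tested SOX genes, with 95% intervals, filled where an FDR of 0.005 was passed, blue for the fit on the authors' gene list and orange for the fit on filterByExpr genes, beside grey diamonds for the median log2FC of the nearest tested genes. The intervals of SOX4, SOX8, SOX13 and SOX6 lie above 0.

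For all 6 SOX genes of the authors' selection there was no overlap between genotypes, 5 being higher and 1 lower in Helz-null cells. Groups did not overlap for 70.6% of all genes tested. The changes of the called genes were modest in size, and none of the 4 passed when edgeR tested for changes beyond 1.2-fold. SOX6 came nearest (adjusted p = 0.0051), followed by SOX8 (0.071), SOX4 (0.29) and SOX13 (0.63).

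The chromosomal neighbours of each SOX gene were taken as up to 10 tested genes on each side. Around SOX4 the 20 genes had a median log2FC of -0.06, around SOX8 0.011, around SOX13 0.03 and around SOX6 -0.02. Of the 20 neighbours of SOX13, 6 were up-regulated and 2 down-regulated, of those of SOX8 5 were up and 3 down, of those of SOX4 3 were up and 1 down, and of those of SOX6 3 were up and 4 down. Over all genes tested 13.9% were up and 15.5% down. The medians around SOX2, SOX3, SOX5, SOX9, SOX11 and SOX12 lay between -0.03 and 0.08.

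Promoter sequences from RefSeq (GRCh38.p14) were held for 7 of the 10 genes, and SOX8, SOX9 and SOX11 had no entry. The 250 bases before the start are shown for SOX4 and SOX13, which rose, and for SOX12, which was as abundant as SOX4 and was not called. Capitals mark matches, on either strand, to the CCAAT box (CCAAT), the GC box (GGGCGG), the TATA box (TATAAA) and a core SOX motif (AACAAT).
SOX4 (chr6:21593501-21593750, plus strand): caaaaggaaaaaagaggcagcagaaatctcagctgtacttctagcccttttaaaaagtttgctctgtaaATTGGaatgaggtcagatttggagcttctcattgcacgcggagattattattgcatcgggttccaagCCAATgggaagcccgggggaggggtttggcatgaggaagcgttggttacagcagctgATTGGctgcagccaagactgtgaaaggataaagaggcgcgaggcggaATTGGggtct
SOX13 (chr1:204072865-204073114, plus strand): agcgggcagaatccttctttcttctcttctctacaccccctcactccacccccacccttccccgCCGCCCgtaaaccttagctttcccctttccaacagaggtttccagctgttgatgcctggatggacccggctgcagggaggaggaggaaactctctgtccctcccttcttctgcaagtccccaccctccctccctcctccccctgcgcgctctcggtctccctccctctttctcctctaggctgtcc
SOX12 (chr20:325302-325551, plus strand): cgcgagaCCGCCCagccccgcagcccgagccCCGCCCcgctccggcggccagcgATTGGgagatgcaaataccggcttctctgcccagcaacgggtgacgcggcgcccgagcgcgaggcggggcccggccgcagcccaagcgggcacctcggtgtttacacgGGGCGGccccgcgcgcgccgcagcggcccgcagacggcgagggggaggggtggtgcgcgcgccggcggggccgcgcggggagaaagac

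The SOX4 window held 4 CCAAT matches and no GC box, the SOX12 window 1 CCAAT match and 3 GC boxes, and the SOX13 window 1 GC box and no CCAAT match. None of these 3 windows held the SOX motif or a TATA box. SOX6, which also rose, has 5 promoter entries, of which 3 held the SOX motif and 3 a TATA box, and the SOX5 window held the SOX motif once. Of all 35116 promoter windows of this length, 32.0% held CCAAT, 42.6% the GC box, 10.7% the TATA box and 8.98% the SOX motif. The GC content was 48.8% for SOX4, 60.8% for SOX13 and 79.2% for SOX12. The SOX6 entries with the SOX motif were poorer in G and C, at 27.2%, 40.8% and 39.2%. The SOX6 entry with the highest GC content (58.8%) held neither the SOX motif nor a TATA box. These matches describe the letters of the windows only.

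Of 9 other SOX genes of the family, 2 were in the authors' selection, with mean FPKM of 2.51 (SOX7) and 3.13 (SOX18), above those of SOX6, SOX5, SOX3 and SOX11. SOX7 (8.07 to 8.61 CPM, log2FC 0.05, adjusted p = 0.74) and SOX18 (4.49 to 6.10 CPM, log2FC 0.18, adjusted p = 0.28), both of the subgroup known for blood vessel development, were not called by edgeR. Neither had an unadjusted p under 0.05, and DESeq2 called 0 of the 2, beside 13.9% up and 15.5% down among all genes tested by edgeR. SOX21, a SOXB2 repressor, was at 3.15 and 2.20 CPM in the WT and at 3.53 and 3.61 CPM in the Helz-null libraries (log2FC 0.39, adjusted p = 0.075 in the filterByExpr fit). SOX15 (adjusted p = 0.73) and SOX30 (adjusted p = 0.51) were not called in that fit either, in which 9.83% of all genes were up and 11.5% down. SOX14 and SOX17 had 0 counts in each library, and SOX1 and SOX10 had at most 4.

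Genes known as partners of SOX proteins went in both directions. Of 13 such genes 8 were tested, 1 was up-regulated and 2 were down-regulated, with a median log2FC of 0.00035 against -0.00091 for all genes, of which 13.9% were up and 15.5% down. POU3F2 and POU3F3 are POU-domain factors that bind DNA beside SOX2 and SOX11 in neural cells. POU3F3 was at 23.6 and 25.1 CPM in the WT libraries and rose to 31.4 and 31.2 CPM (log2FC 0.37, SE 0.060, edgeR quasi-likelihood adjusted p = 3.29e-06). POU3F2 fell from 38.2 and 38.3 to 31.8 and 31.8 CPM (log2FC -0.26, adjusted p = 8.94e-05), and CTNNB1, which encodes beta-catenin, fell with a log2FC of -0.17 (adjusted p = 3.60e-06).

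Of 22 neural progenitor and early neuronal genes 10 were tested, with 3 called up and 1 called down and a median log2FC of 0.07, beside 13.9% up and 15.5% down among all genes tested. NES, which encodes the progenitor filament protein nestin and has a neural enhancer bound by SOX and POU factors, rose with a log2FC of 0.40 (adjusted p = 6.29e-05). MSI1, an RNA-binding protein of neural progenitors, rose with a log2FC of 0.23 (adjusted p = 0.00042) and NOTCH1 with 0.18 (adjusted p = 0.0037). VIM fell by 0.14 on the log2 scale (adjusted p = 2.04e-05). In DESeq2, in thinned libraries and without either Helz-null replicate, 2 of the 10 were up in place of 3. TUBB3 is a neuronal tubulin gene known as a target of SOXC factors. It was at 18.5 and 19.8 CPM in WT libraries and at 20.0 and 19.6 CPM in the Helz-null ones (log2FC 0.05, adjusted p = 0.59). TUBB3 was chosen for mention after its value was seen. So were TEAD2 (log2FC 0.15) and STMN1 (log2FC 0.085), which had an edgeR adjusted p of 0.017 each and were not called. At an unadjusted p under 0.05 in edgeR, 5 of the 10 tested genes were up and 1 was down. Whether targets of SOXC factors followed SOX4 was not tested. In the filterByExpr fit, where 13 of the 22 could be tested, 2 were up and 3 down, beside 9.83% and 11.5% of all its genes. The added down-regulated genes were MAP2 (log2FC -2.43, adjusted p = 9.37e-06), at 0.940 and 1.27 CPM in WT libraries against 0.242 and 0.172 CPM, and DPYSL3 (log2FC -0.69, adjusted p = 0.00098).

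Cartilage genes, which SOX9, SOX5 and SOX6 are known to activate, were mostly low. Of 15 such genes 2 were tested and both were down-regulated, as were 15.5% of all genes tested. COL2A1 fell from 38.9 and 39.5 to 30.7 and 31.1 CPM (log2FC -0.34, SE 0.053, edgeR quasi-likelihood adjusted p = 1.42e-06), and COL27A1 fell from 20.1 and 20.2 to 16.0 and 15.2 CPM (log2FC -0.37, adjusted p = 5.84e-05). No gene of this list was up-regulated in edgeR or DESeq2, and none had an unadjusted p under 0.05 in that direction (0 of 2 tested). In the filterByExpr fit 10 genes could be tested and the same counts, 0 up and 2 down, were found, beside 9.83% up and 11.5% down among all its genes.

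Of 20 glial and neural crest genes, many of them targets of SOXE factors, 4 were tested, 1 was up-regulated and 0 were down-regulated by edgeR or DESeq2 (0 at an unadjusted p under 0.05), beside 13.9% up and 15.5% down among all genes tested. TFAP2A, a transcription factor of the neural crest, rose from 35.4 and 34.6 to 47.4 and 49.1 CPM (log2FC 0.46, SE 0.050, edgeR quasi-likelihood adjusted p = 5.62e-10). In the filterByExpr fit 14 were tested and 4 were up, beside 9.83% of all its genes. The further up-regulated genes of that fit were DCT, an enzyme of melanin synthesis (log2FC 1.199, adjusted p = 1.73e-05), the endothelin receptor EDNRB (1.18, adjusted p = 0.00014) and the receptor kinase RET (0.57, adjusted p = 0.00034). DCT, EDNRB and RET lie between 0.860 and 7.32 CPM in each library.

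**Figure D5:**
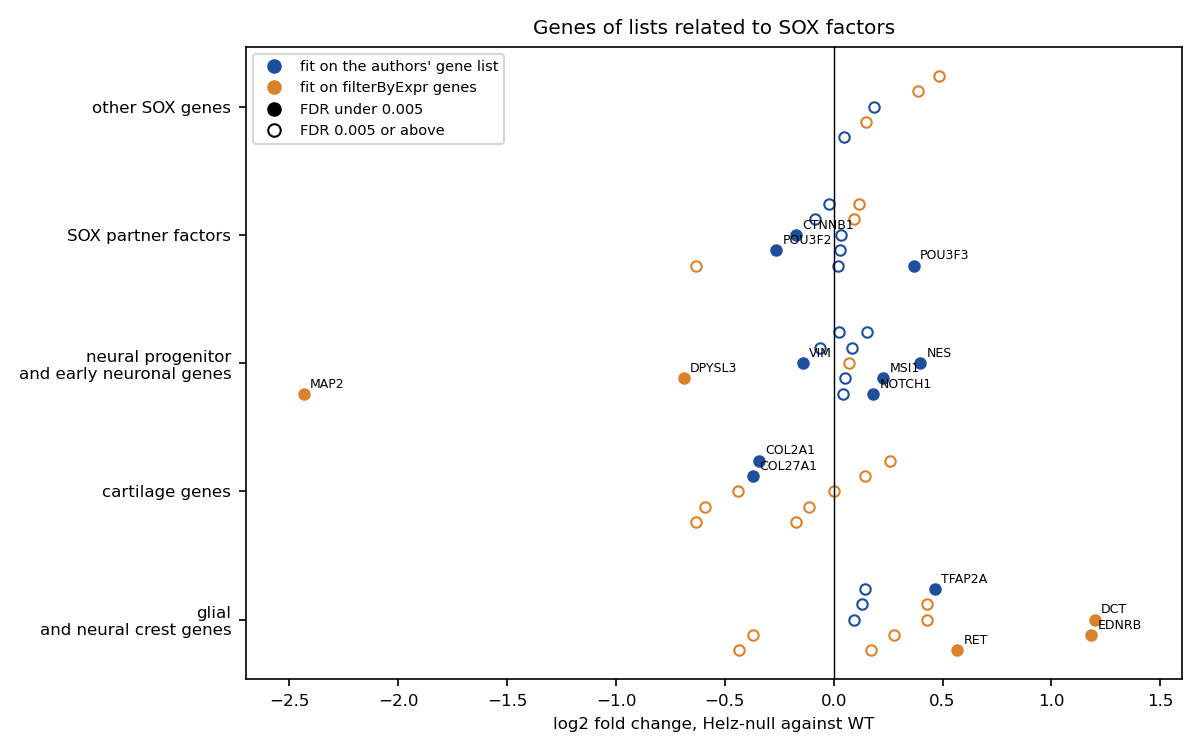
Log2 fold change between Helz-null and WT cells of the tested genes reported here from 5 lists related to SOX factors, filled and named where an FDR of 0.005 was passed, blue for the fit on the authors' gene list and orange for the fit on filterByExpr genes. COL2A1 and COL27A1 lie to the left of 0, and TFAP2A, RET, EDNRB and DCT to the right.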

How the data were processed

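Raw read counts per gene were deposited by the authors for 4 RNA-Seq libraries without normalization, together with a gene width in bases. Per the paper's methods and the labels, ribosomal RNA reads were filtered with Bowtie2, paired-end reads were mapped to hg19 with TopHat2 and reads were counted with QuasR. Tool versions, the annotation, strand use and the counting of mates are not given in the sources used here. The count totals are larger than the numbers of mapped reads in the paper, so a fragment may have given several counts. A second deposited table holds the authors' own fold changes and p-values, of which only the list of 10978 genes was used.

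Tests were run with edgeR 4.0.16, limma 3.58.1 and R 4.3.3 (TMM, estimateDisp, glmQLFit, glmQLFTest, genotype as the only term). Genes were called at a Benjamini-Hochberg FDR under 0.005 over all genes tested. Genes outside the list were taken from a fit on 16087 genes passing filterByExpr, and are named as such. SEs were derived from the log2FC and the F statistic. FPKM used the deposited counts, widths and library totals. Replicates are biological per the paper, and those of WT (chi-square of 4.16 per degree of freedom) and of Helz-null cells (3.01) differed by more than counting noise. That comparison takes each count as independent. An exact permutation test of 2 against 2 libraries cannot go below p = 0.333 and was not used. Floors cover counting error only.

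Positions, transcripts and GC content came from GENCODE v44 on GRCh37, and 99.0% of tested genes had a GC value. Motifs were searched in RefSeq promoter windows (GRCh38.p14). DESeq2 1.42.0, other scalings, gene filters, a replicate block, a GC correction, thinned libraries, halved counts, other thresholds and libraries left out in turn were alternatives. The steps were tested on simulated data. The SOX genes and the lists were chosen with earlier results of these data known. Named genes were HELZ, the SOX genes, genes overlapping them and up to 3 called genes per direction in each list. Figures used matplotlib 3.10.9. Some results on genes of the marker and glial lists are not reported here.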

Additional observations from a re-analysis of the deposited data

How the results depend on the processing

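SOX4, SOX8 and SOX13 were called in 16 of 17 alternatives each and SOX6 in 15 of 16, the exception being the test for changes beyond 1.2-fold. That test called 0 SOX genes up, and of all genes tested 217 were up and 318 down. It also called 0 SOX partner factors up and 0 down, 0 neural progenitor and early neuronal genes up and 0 down, and 0 cartilage genes down. The log2FC of SOX4 was between 0.30 and 0.34 over its alternatives, that of SOX8 between 0.41 and 0.51, that of SOX13 between 0.28 and 0.35 and that of SOX6 between 0.52 and 0.80. SOX2, SOX5, SOX9 and SOX12 kept their sign without being called. With scaling by library totals only, SOX12 had an adjusted p of 0.023.

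SOX3 changed sign in 6 of 16 alternatives, with a log2FC of -0.020 in DESeq2, -0.091 with the replicate block, -0.15 with the replicate block and the GC correction, -0.29 in thinned libraries, and between -0.82 and 0.46 with libraries left out in turn. It was negative without WT replicate 1 (-0.12) and without Helz-null replicate 2 (-0.82).

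At an FDR under 0.05, 2371 of all genes tested were up and 5 neural progenitor and early neuronal genes were up. With scaling by library totals only, 5 of the latter were up. In DESeq2, with filterByExpr, in thinned libraries and without either Helz-null replicate, 2 were up. With filterByExpr and with all genes of at least 1 count, 3 neural progenitor and early neuronal genes were down, and 4 glial and neural crest genes were up and 1 was down. With libraries left out in turn, between 0 and 1 neural progenitor and early neuronal genes were down, 0 without Helz-null replicate 2.

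Replicate numbers carried no shared effect across genes: the differences between replicates 1 and 2 had a correlation of 0.020 between WT and Helz-null cells across 10762 genes. Whether libraries with the same number were handled together is not stated in the labels. With the replicate block 1677 genes were up and 1841 down, and 3 SOX genes were up. Depth limits what can be seen for SOX3 (7 to 29 counts per library) and SOX5 (72 to 146).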
